A study of Mus musculus with 9 samples.

Results

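The genes described here encode the machinery of oxidative phosphorylation, taken from the deposited expression table by symbol: every row starting with Nduf, Uqcr, Cox4 to Cox8 or Atp5, and the rows Sdha, Sdhb, Sdhc and Sdhd. The rule found 92 of the 24411 genes in the table, of which 86 were expressed enough to be tested (at least 1 TPM, a length-scaled share of a library's transcripts, in at least 3 of the 9 libraries). The rule used symbols and no measured value. The 6 genes below the filter were Cox4i2, Cox6b2, Cox7b2, Cox8b, Cox8c and Ndufa4l2. The libraries came from self-renewing macrophage lines of C57BL/6 mice that were expanded ex vivo and kept in medium with 100 ng/mL M-CSF, which macrophages need to survive and divide. YS lines started from yolk sac at E9.5, FL lines from fetal liver at E14.5 and BM lines from adult bone marrow, with 3 lines in each group. Each line was a bulk culture from its own dish or well, started from cells pooled from more than 1 mouse, so that the spread within a group is a spread between lines and not between animals. No group was treated, and no gene was targeted in any line.

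Oxidative phosphorylation takes place at the inner mitochondrial membrane. Complex I (NADH dehydrogenase) and complex II (succinate dehydrogenase) pass electrons to ubiquinone, complex III (the cytochrome bc1 complex) passes them on to cytochrome c, and complex IV (cytochrome c oxidase) passes them to oxygen. Complexes I, III and IV pump protons, and complex V (ATP synthase) lets the protons flow back through its rotor and makes ATP. A few subunits of complexes I, III, IV and V are encoded by mitochondrial DNA, and those subunits were not analysed here. In macrophages the balance between this pathway and glycolysis is known to shift with activation.

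Of the 92 genes, 36 encode subunits of complex I, 4 of complex II, 8 of complex III, 18 of complex IV and 15 of complex V. The remaining 11 match the symbol patterns without being subunits: the complex I assembly factors Ndufaf1 to Ndufaf7 and Atp5sl, the coupling factor gene Atp5s, the supercomplex gene Cox7a2l and the paralog Ndufa4l2. Ndufa4, which the nomenclature files under complex I, was counted with complex IV, where its protein resides.

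Each library listed between 13345 and 14322 genes above 0. All 8 macrophage markers, Csf1r and Cd68 among them, were at 1 TPM or more in every line. Their sum was lower in YS lines (4003 to 9062 TPM) than in FL (11533 to 28262 TPM) or BM lines (11485 to 13087 TPM), and it was lowest in YS line 1, with Csf1r at 1085.83, Cd68 at 1018.47 and Lyz2 at 1163.15 TPM. Lyz2 was the largest part of the sum in every line, at 1163.15 to 3531.31 in YS, 5806.07 to 21976.14 in FL and 5986.16 to 7841.48 TPM in BM lines. Not every marker was lower: Fcgr1 was at 122.16 to 329.94 TPM in YS and 1.68 to 42.10 TPM in BM lines. Mertk in YS line 1, at 21.93 TPM, was above every BM line. The fibroblast and lymphocyte markers were below 1 TPM in every line. Of the 4 hepatocyte markers 3 were also below 1 TPM in every line, and Afp was at 1.03 to 20.45 TPM. The hepatocyte sum was 1.03 to 6.75 in YS, 9 to 20.6 in FL and 3.1 to 12.5 TPM in BM lines. BM line 2 stood apart from the other BM lines, with 214.99 TPM of the haemoglobin gene Hba-a1, which was at 0.30 TPM in BM lines 1 and 3. The 5 erythroid markers, with Hbb-bs listed at 0 in every line, summed to 0.53 to 9.25 in YS, 0.43 to 1.48 in FL and 0.66 to 217 TPM in BM lines. The 4 endothelial markers summed to 30.1 to 56 in YS, 19 to 51.8 in FL and 0.19 to 3.2 TPM in BM lines. The 3 megakaryocyte markers, mostly Pf4, summed to 230 to 2123 in YS, 615 to 1729 in FL and 38.6 to 393 TPM in BM lines, and the neutrophil markers to 0.06 to 2.19 in YS, 10.5 to 25.1 in FL and 3.49 to 5 TPM in BM lines. The part of these differences in the results below was not tested. In bulk RNA a smaller share of cells with a transcript and less of it in each cell cannot be told apart. TPM are shares of a library, so a total change in mitochondrial transcripts per cell could not be seen here, and the read depth of each library is unknown.

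**Figure D1:**
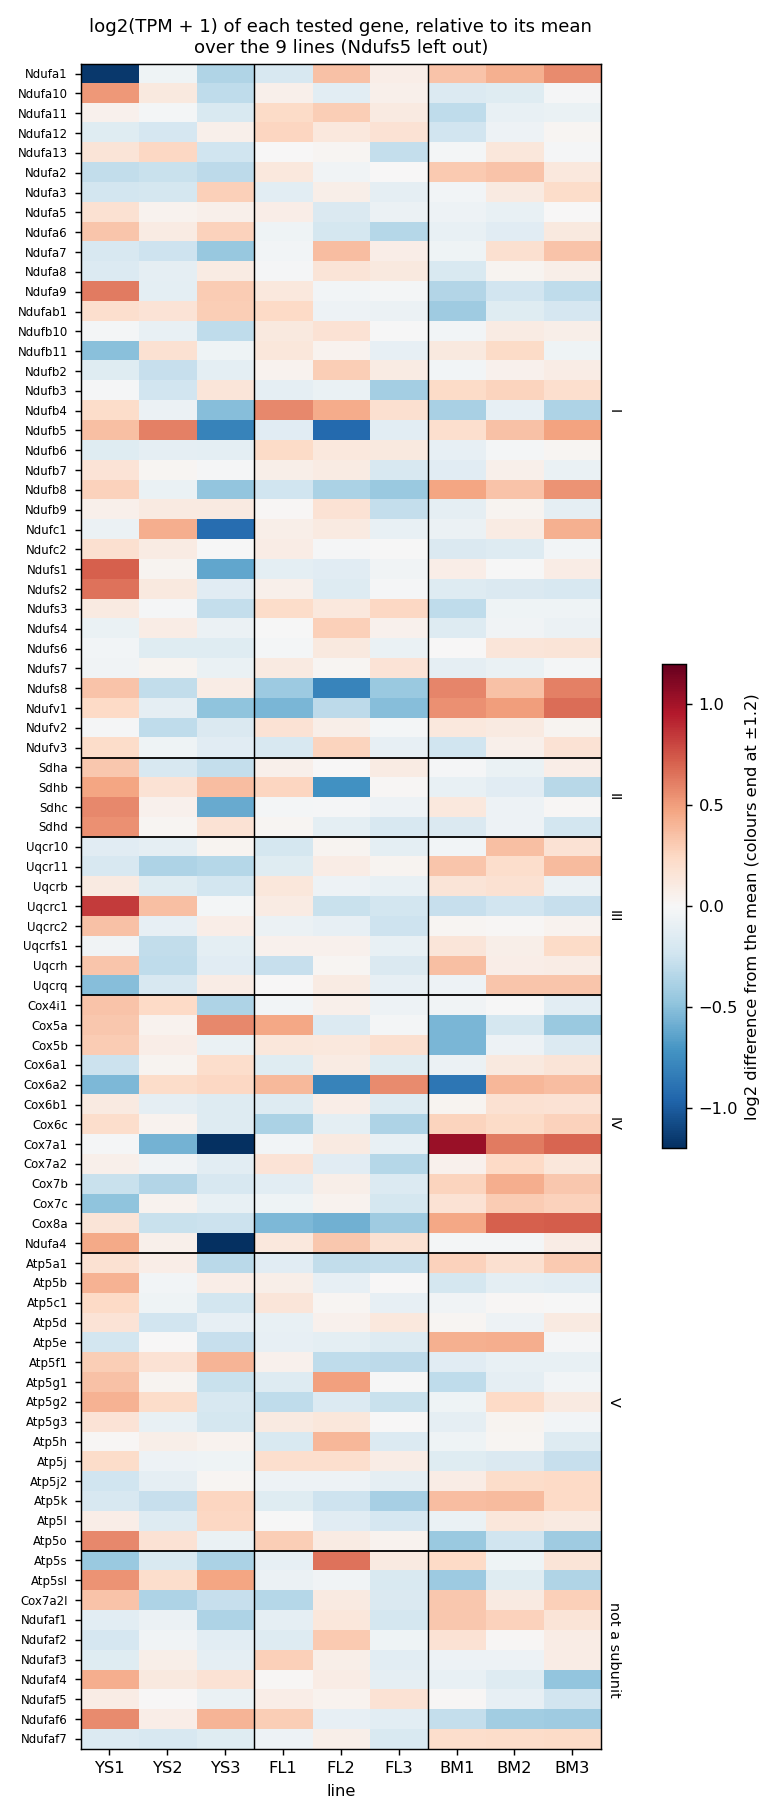
Level of each tested gene in each of the 9 lines, as log2(TPM + 1) minus the gene's mean over the lines; rows are genes without Ndufs5, grouped by complex (right margin), columns are lines, red is above and blue below the mean, and colours end at 1.2. Cox8a, Ndufs8 and Ndufv1 are red in the 3 BM lines and blue in the 3 FL lines, and Ndufa4 and Cox7a1 are darkest blue in YS line 3.

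Together the 92 genes took a similar share of the transcripts in each group. Their summed level was 2.6% ± 0.23 of the TPM in YS, 2.5% ± 0.095 in FL and 2.67% ± 0.084 in BM lines (± SD over 3 lines per group, n = 3). Mitochondrially encoded transcripts are not part of these sums or of the totals. Single lines ranged from 23874 TPM in FL line 3 to 28574 TPM in YS line 1, which is 1.2 times as much, and every FL line lay below the BM lines, while YS line 1 lay above them and YS lines 2 and 3 below. Sums over members are given as a description, with no test.

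Complex I subunits summed to 6839, 6437 and 5983 TPM in YS lines 1 to 3, to 6717, 6670 and 6222 TPM in FL lines 1 to 3, and to 6475, 6909 and 6985 TPM in BM lines 1 to 3. The 3 groups overlapped. Complex II was at 1487, 1070 and 1042 in YS, 1110, 931 and 1012 in FL and 1021, 995 and 969 TPM in BM lines. The YS lines all lay above the BM lines there, by a margin that came mostly from YS line 1, and the ratio of the means was 1.21. Complex III summed to 2695, 2238 and 2293 in YS, 2400, 2451 and 2287 in FL and 2690, 2753 and 2680 TPM in BM lines. Every FL line was below every BM line for complex III, with a ratio of the means of 0.879, whereas YS line 1 lay among the BM lines. Complex IV summed to 7080, 6526 and 5919 in YS, 6271, 6473 and 5961 in FL and 6406, 7128 and 6950 TPM in BM lines, and its groups overlapped. Complex V was the most abundant by this sum, at 9922, 8643 and 8565 in YS, 8570, 8535 and 7972 in FL and 8685, 9176 and 8885 TPM in BM lines. The FL lines lay below the BM lines for complex V by a small margin, with a ratio of 0.938.

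**Figure D2:**
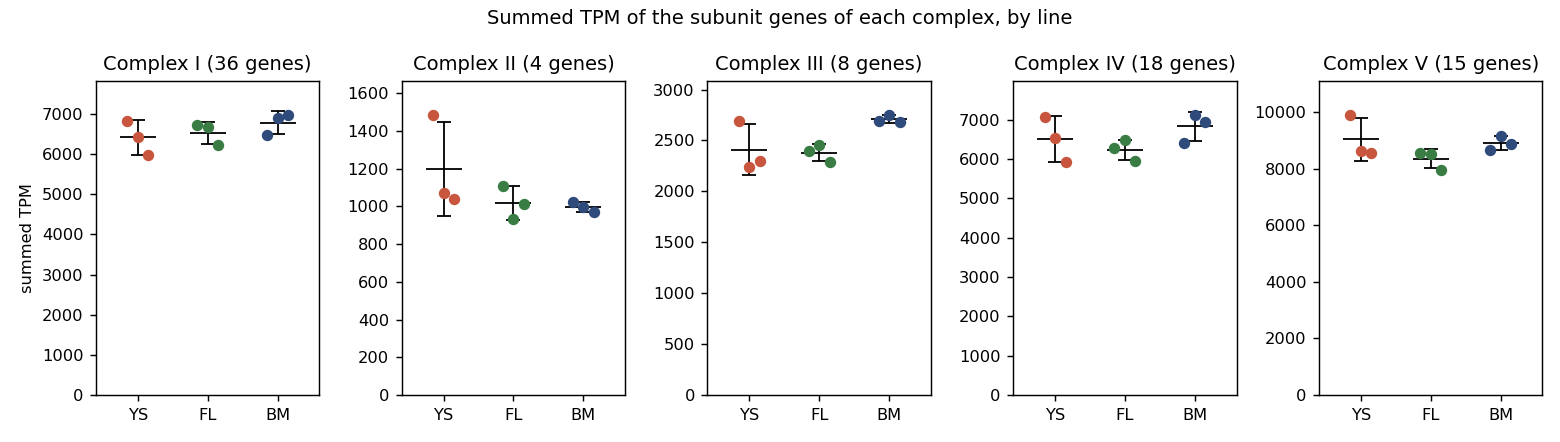
Summed TPM of the subunit genes of each complex in each line (points), with the mean (bar) and SD (whiskers) of the 3 lines of a group; each axis starts at 0. YS line 1 is the highest line for complexes II and V, at 1487 and 9922 TPM, and the BM lines lie together between 2680 and 2753 TPM for complex III.

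At the level of single genes, differences were smaller than over all tested genes, and fewer when rises and falls were counted together. The 2 sets differ in level: 73 of the 86 genes averaged 50 TPM or more, against 3794 of the 11753 tested genes. Whether differences were smaller than in genes of like level was not tested. Differences are given on the log2(TPM + 1) scale from limma fitted over all 11753 tested genes, with Benjamini-Hochberg adjustment over all of them, and a gene is called changed at an adjusted p under 0.1. In YS against BM lines 27 of the 86 genes were called (10 higher in YS lines, 17 lower), where 37.9% of all tested genes were called (23.5% higher and 14.4% lower). In FL against BM lines 16 were called, 5 higher and 11 lower in FL lines, where 27.6% of all tested genes were called (17.0% higher and 10.6% lower). Between YS and FL lines 6 were called (4 higher in YS lines, 2 lower), where 12.8% of all tested genes were called (6.20% higher and 6.56% lower). The shares of the 86 genes called in this fit, 31.4%, 18.6% and 6.98% in the same order, were below those of all genes. Falls alone were not fewer against BM lines. The 17 and 11 genes called lower there were larger shares of the 86 than the 14.4% and 10.6% of all tested genes. Comparisons of YS and of FL lines against BM lines use the same BM lines.

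The split of directions depended on how libraries were scaled. The median of all tested genes was 0.11 in YS against BM lines and 0.09 in FL against BM lines on the log2 scale, and scaling by the median of ratios brought both to 0.00. Under that scaling the calls were 9 higher and 30 lower in YS against BM lines and 3 higher and 17 lower in FL against BM lines. Under quantile normalization they were 10 higher and 23 lower, and 2 higher and 14 lower. The number of calls also depended on the libraries fitted. In the main fit the 3 groups shared a single spread per gene. The comparison of FL against BM lines thus also drew on the spread of YS lines. The median SD of the 86 genes on the log2 scale was 0.19 in YS, 0.12 in FL and 0.09 in BM lines. With only the 2 groups compared in the fit, 32 genes were called in FL against BM lines (11 higher and 21 lower), 26 in YS against BM lines and 0 in YS against FL lines, where 10 had an unadjusted p under 0.05 (limma). Without BM line 1 it fell to 4 higher and 9 lower in YS against BM lines and to 0 higher and 7 lower in FL against BM lines, and without BM line 3 to 4 higher and 9 lower, and 0 higher and 8 lower. In FL against BM lines it was 0 higher and 10 lower without FL line 1, 3 higher and 7 lower without FL line 3, and 9 higher and 19 lower without YS line 1. In YS against FL lines it was 0 without FL line 2, FL line 3, BM line 1 or BM line 3, with 11 to 16 genes at an unadjusted p under 0.05 (limma), and 9 higher and 3 lower without YS line 3. Without BM line 2, which stood apart, the calls were 9 higher and 10 lower in YS against BM lines, 3 higher and 9 lower in FL against BM lines and 1 higher and 0 lower in YS against FL lines. Each of the 27, 16 and 6 called genes kept its direction under every alternative fitted, and 10, 7 and 0 of them in the same order kept an adjusted p under 0.1 in all of them. Those were Atp5sl, Cox7a1, Cox7b, Cox8a, Ndufa1, Ndufa2, Ndufab1, Ndufaf6, Ndufv1 and Uqcr11 in YS against BM lines and Atp5k, Cox6c, Cox7b, Cox8a, Ndufb8, Ndufs8 and Ndufv1 in FL against BM lines, of which Ndufab1, Uqcr11 and Cox6c are named after their values were seen.

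The median difference of the 86 genes was -0.05 in YS against BM lines, -0.01 in FL against BM lines and 0.01 in YS against FL lines, which is -0.16, -0.10 and -0.01 relative to the median of all tested genes. The median size of a difference, whatever its direction, was 0.24, 0.20 and 0.16 on the log2 scale, against 0.36, 0.30 and 0.27 over all tested genes. Few genes passed a 2-fold limit as well: 1 in YS against BM lines (Cox7a1, lower) and 3 in FL against BM lines (Cox8a, Ndufs8 and Ndufv1, all lower), against 12.8% and 10.3% of all tested genes. In YS against FL lines limma called 0 over 2-fold, against 3.79% of all tested genes, and 0 had an unadjusted p under 0.05 with that fold. Groups of lines did not overlap for 41 of the 86 genes in YS against BM lines, 41 in FL against BM lines and 17 in YS against FL lines, beside 49.0%, 49.5% and 26.1% of all tested genes.

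**Figure D3:**
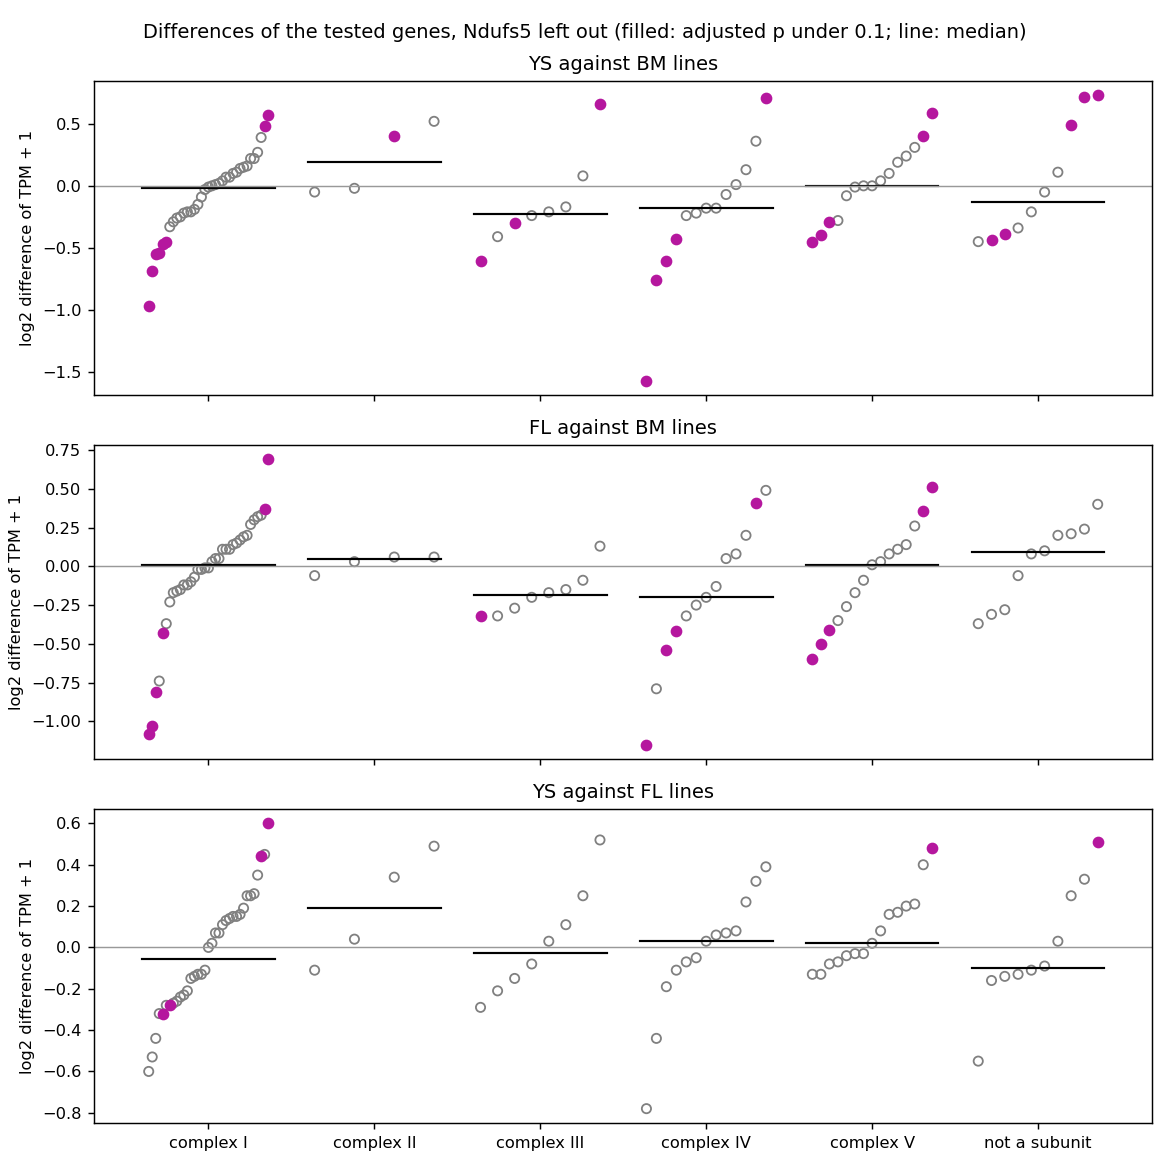
Difference of each tested gene on the log2(TPM + 1) scale in the 3 comparisons, by complex, with genes in order of their difference; filled points have an adjusted p under 0.1 (limma), open points do not, and the black line is the median of the complex. Medians lie between -0.23 and 0.19, and Cox7a1 is the lowest filled point at -1.57 in YS against BM lines. Ndufs5 is not drawn.

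The clearest pattern among single genes was that of Ndufs8, Ndufv1, Cox8a and Ndufb8, which lie on chromosome 19 and are the 4 tested members there. Ndufv1 encodes the flavin-binding subunit of complex I that takes electrons from NADH, Ndufs8 an iron-sulfur subunit of the same arm, Ndufb8 an accessory subunit of its membrane arm and Cox8a the ubiquitous form of a small complex IV subunit. Ndufs8 was at 142.94, 91.79 and 119.82 in YS, 82.93, 64.70 and 82.48 in FL and 170.14, 144.50 and 172.19 TPM in BM lines. All BM lines were above all FL lines, and YS lines lay between, YS line 1 just under BM line 2. The difference was -1.08 ± 0.18 (SE) in FL against BM lines (adjusted p = 0.0043), -0.47 ± 0.18 in YS against BM lines (adjusted p = 0.076) and 0.60 ± 0.18 in YS against FL lines (adjusted p = 0.082).

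Ndufv1 was at 67.94, 53.18 and 40.84 in YS, 38.73, 45.85 and 39.95 in FL and 84.41, 81.54 and 91.55 TPM in BM lines. The BM lines were above all others, and YS line 3 lay among the FL lines. Its difference was -1.03 ± 0.17 in FL against BM lines (adjusted p = 0.0048) and -0.69 ± 0.17 in YS against BM lines (adjusted p = 0.021). Cox8a was at 541.31, 403.26 and 405.55 in YS, 332.88, 326.28 and 361.41 in FL and 670.49, 798.97 and 804.94 TPM in BM lines. No 2 groups overlapped, with FL lines lowest, and the BM mean was 2.22-fold the FL mean on the fitted scale (-1.15 ± 0.14, adjusted p = 0.0014) and 1.69-fold the YS mean (-0.76 ± 0.14, adjusted p = 0.007). Ndufb8 was at 329.26, 257.09 and 195.46 in YS, 229.73, 208.33 and 200.24 in FL and 377.62, 344.83 and 395.87 TPM in BM lines. The BM lines were again highest, and YS lines spread from below the lowest FL line to just below BM line 2. Its difference was -0.81 ± 0.18 in FL against BM lines (adjusted p = 0.014) and -0.54 ± 0.18 in YS against BM lines (adjusted p = 0.048). In FL against BM lines these 4 genes kept an adjusted p under 0.1 without any 1 line. In YS against BM lines Ndufs8 lost it without YS line 2, YS line 3, BM line 1 or BM line 3, and Ndufb8 without BM line 1 or BM line 3, with adjusted p up to 0.2 and 0.15. In YS against FL lines the call of Ndufs8 was lost without any 1 of 7 lines and kept without YS line 2 or FL line 1 (adjusted p up to 0.22).

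**Figure D4:**
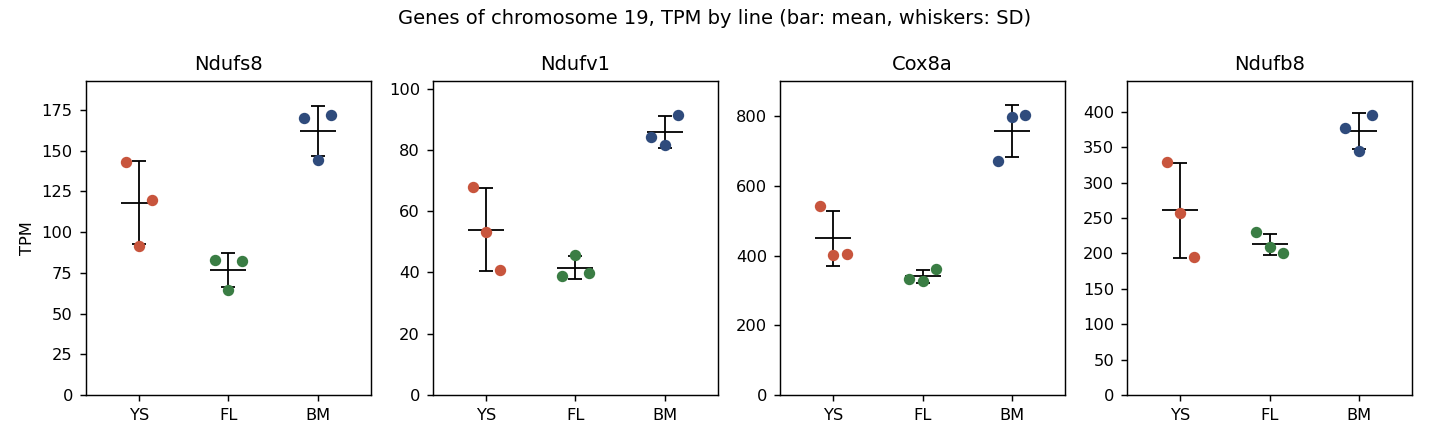
TPM of the 4 tested genes of chromosome 19 in each line (points), with the mean (bar) and SD (whiskers) of the 3 lines of a group; each axis starts at 0. BM lines are highest in each panel, at 670.49 to 804.94 TPM for Cox8a, and FL lines sit between 326.28 and 361.41 TPM there.

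Other genes of chromosome 19 were lower too. Over the 422 tested genes of that chromosome that are not among the 86, the median difference was -0.79 in FL against BM lines, where 70.9% were called lower, and -0.53 in YS against BM lines, where 59.2% were called lower. By line, the median over those genes relative to the BM mean was -0.39, -0.59 and -0.59 in YS, -0.73, -0.78 and -0.78 in FL and 0.04, -0.08 and 0.04 in BM lines. Relative to the median of their chromosome, Ndufs8, Ndufv1, Cox8a and Ndufb8 differed by -0.28, -0.24, -0.36 and -0.01 in FL against BM lines and by 0.05, -0.16, -0.23 and -0.02 in YS against BM lines. The part of a chromosome-wide difference in the values of single genes was not tested. Without these 4 genes, 12 of 82 were called in FL against BM lines (5 higher and 7 lower, 0 over 2-fold by limma). In YS against BM lines 23 of 82 were called (10 higher and 13 lower). Over all tested genes 27.6% and 37.9% were called in the same order.

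In YS against BM lines 24 of the 27 called genes differed in the same direction as the median of the other tested genes of their chromosome, as did 13 of 16 in FL against BM lines and 5 of 6 in YS against FL lines. Once that median was subtracted, 25, 15 and 6 of them kept their direction, and the median size of their difference went from 0.54 to 0.32, from 0.51 to 0.33 and from 0.46 to 0.34. The called genes were selected for a large difference, and over all 86 genes that size went from 0.24 to 0.21, from 0.20 to 0.16 and from 0.16 to 0.11. How often called genes outside the 86 share the direction of their chromosome was not computed. On chromosome 19, 59.2% of the other genes were called lower and 4.74% higher in YS against BM lines. Agreement there was thus not particular to the members. Chromosome 16 carries 3 members, Atp5j, Atp5o and Ndufb4, and all were called higher in FL than in BM lines, where 46.8% of the other genes of that chromosome were called higher and their median was 0.44. Chromosome 9 carries 6 tested members, of which Cox5a, Sdhd and Uqcrc1 were called higher in YS than in BM lines, close to the 48.6% of the other genes there that were called higher, with a median of 0.49. Ndufa2, on chromosome 18, was called lower in YS than in BM lines, with a chromosome median of -0.30. Cox7a1, on chromosome 7, went against its chromosome, whose median was 0.20 in YS against BM lines.

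**Figure D5:**
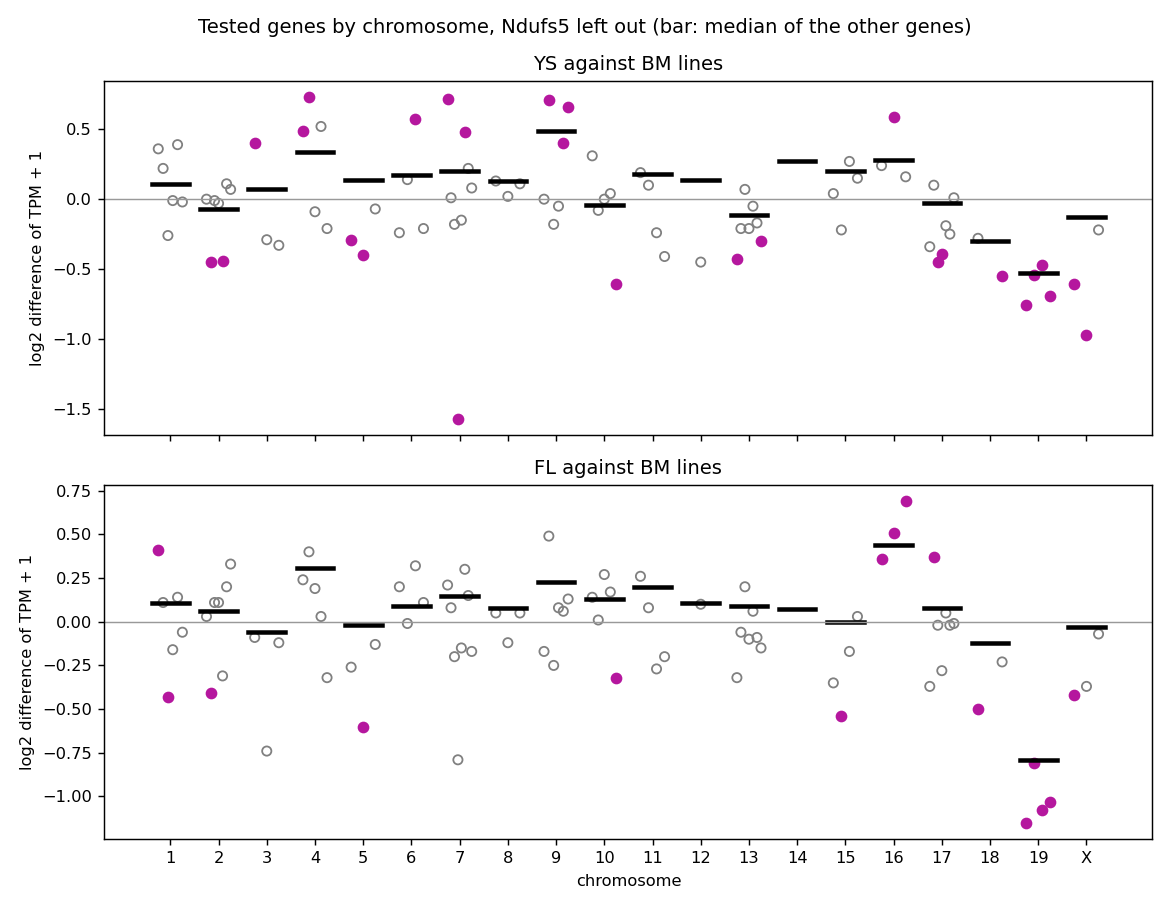
Difference of each tested gene by chromosome in YS against BM lines (top) and FL against BM lines (bottom), on the log2(TPM + 1) scale; filled points have an adjusted p under 0.1 (limma), open points do not, and each black bar is the median of the other tested genes of the chromosome. The bar of chromosome 19 lies at -0.53 and -0.79, and its 4 points are all filled and below 0. Ndufs5 is not drawn.

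The start regions of the 4 genes of chromosome 19 are shown because those genes moved together, with that of Cox7a1, the gene with the largest called difference, for comparison. Sequences are those of RefSeq on GRCm38.p6, 5′ to 3′ on the strand of the gene. They run from 120 bases before the annotated start to 30 bases after it. Capitals mark any match to 1 of 3 motifs. CGGAAG is a form of the site bound by ETS factors such as GABP. The others are GCATGCGC, part of the palindrome bound by NRF1, and AAGATGGC, bound by YY1. Other forms of these sites were not searched for and are not marked. All 3 factors are known to act at nuclear genes of mitochondrial proteins. Both strands were searched, and no matches overlapped in these stretches.
Ndufs8 (chr19:3912745-3912894, minus strand): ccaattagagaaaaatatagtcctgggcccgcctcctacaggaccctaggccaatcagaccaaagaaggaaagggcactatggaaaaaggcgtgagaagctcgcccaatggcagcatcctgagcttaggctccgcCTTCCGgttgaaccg
Ndufv1 (chr19:4012726-4012875, minus strand): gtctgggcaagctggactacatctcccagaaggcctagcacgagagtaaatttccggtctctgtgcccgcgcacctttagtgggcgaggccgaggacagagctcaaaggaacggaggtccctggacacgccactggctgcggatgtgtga
Cox8a (chr19:7217587-7217736, minus strand): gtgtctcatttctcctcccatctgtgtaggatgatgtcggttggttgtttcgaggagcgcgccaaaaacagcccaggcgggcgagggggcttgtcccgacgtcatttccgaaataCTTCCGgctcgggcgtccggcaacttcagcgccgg
Ndufb8 (chr19:44555413-44555562, minus strand): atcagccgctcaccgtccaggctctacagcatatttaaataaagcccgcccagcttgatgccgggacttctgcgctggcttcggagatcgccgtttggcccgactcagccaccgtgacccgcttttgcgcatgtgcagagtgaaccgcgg
Cox7a1 (chr7:30184051-30184200, plus strand): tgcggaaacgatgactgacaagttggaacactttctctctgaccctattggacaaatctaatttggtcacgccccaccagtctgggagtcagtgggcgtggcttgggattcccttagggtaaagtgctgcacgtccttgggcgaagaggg
Ndufs8 and Cox8a each hold 1 match to the ETS letters, read on the other strand, close to the start. The stretches of Ndufv1, Ndufb8 and Cox7a1 hold no match to these letters. A promoter was found for 76 of the 92 genes, which gave 82 promoters of 300 bases (250 before and 50 after the start). The ETS letters were present in 40.2% of these promoters and in 16.9% of all 32851 promoters. The NRF1 letters were in 14.6% and 2.71%, and the YY1 letters in 14.6% and 2.75%. A match in these letters is a description of the sequence only.

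Complex I feeds electrons from NADH into the chain and is the largest of the complexes. Of its 36 tested subunit genes, 2 rose and 6 fell in YS relative to BM lines, 2 were called higher and 4 lower in FL than in BM lines, and 2 higher and 2 lower in YS than in FL lines. Levels ranged from a mean of 33.5 TPM for Ndufa11 to 454 TPM for Ndufa2, both accessory subunits, leaving aside Ndufs5. Ndufs5, another accessory subunit, was listed at 0 in 6 lines and at 6.35, 11.84 and 5.45 TPM in FL line 1, FL line 3 and BM line 2. A value of 0 for a subunit of a complex that every line expresses can be a failed estimate, and 24.1% of the gene's stretches of 75 bases also occur in another gene.

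The largest called fall of a complex I gene in YS against BM lines was that of Ndufa1, an X-linked accessory subunit of the membrane arm. Ndufa1 was at 75.15, 162.70 and 131.42 in YS, 147.85, 215.51 and 179.11 in FL and 215.09, 227.29 and 251.53 TPM in BM lines. Every YS line was below every BM line, and YS line 1 was lowest of all. The difference was -0.97 ± 0.26 (adjusted p = 0.027) in YS against BM lines, and -0.37 ± 0.26 (adjusted p = 0.37) in FL against BM lines.

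Ndufa2, an accessory subunit of the matrix arm, was at 365.71, 371.72 and 361.12 in YS, 490.08, 433.52 and 447.99 in FL and 555.64, 569.24 and 489.25 TPM in BM lines. The YS lines were below all others and close to each other. Its difference was -0.55 ± 0.10 in YS against BM lines (adjusted p = 0.0062) and -0.32 ± 0.10 in YS against FL lines (adjusted p = 0.092). The first held without any 1 line (adjusted p up to 0.035), and the second was lost without any 1 of the 9 (up to 0.2). Ndufb6, a membrane-arm accessory subunit, stood at 145.98, 149.80 and 148.89 in YS and 190.27, 176.42 and 176.02 TPM in FL lines. BM lines lay between, at 150.95 to 164.65 TPM, and the difference of YS against FL lines was -0.28 ± 0.08 (adjusted p = 0.083), a call kept only without YS line 3 (adjusted p up to 0.18 without another line). Of its annotated exonic bases 39% lie opposite exons of Smim27, a gene on the other strand, and the strand setting used in counting is not given in the sources used here.

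Ndufb4, a further membrane-arm subunit, was higher in FL lines than in BM lines, at 293.87, 267.79 and 223.58 TPM, against 149.60, 182.85 and 151.87 TPM. YS lines spread across the BM range at 229.14, 186.36 and 137.21 TPM. It rose by 0.69 ± 0.19 in FL against BM lines (adjusted p = 0.037), and 35.2% of its stretches of 75 bases occur in other genes. The call was lost without FL line 1, BM line 1 or BM line 3 (adjusted p up to 0.13). Ndufa11 was at 39.18, 40.98 and 35.88 TPM in FL lines and 26.73, 31.08 and 31.36 TPM in BM lines, a difference of 0.37 ± 0.12 (adjusted p = 0.057), with YS lines at 29.07 to 34.47 TPM. Ndufa6, a matrix-arm accessory subunit, was at 230.19, 196.01 and 222.01 TPM in YS lines against 176.83, 157.97 and 143.76 TPM in FL lines, a difference of 0.44 ± 0.12 (adjusted p = 0.07). Under quantile normalization and median-of-ratios scaling Ndufa11 differed by 0.27 and 0.28, with adjusted p of 0.14 and 0.12. Its call was also lost without FL line 1, FL line 2 or any BM line (adjusted p up to 0.21), and that of Ndufa6 without any 1 line but YS line 2 and FL line 1 (up to 0.2).

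Complex II also belongs to the citrate cycle and has 4 subunits, all encoded in the nucleus. Sdha, the flavoprotein that oxidises succinate, was at 251.25, 175.44 and 164.87 in YS, 210.31, 201.32 and 215.34 in FL and 199.60, 190.17 and 212.78 TPM in BM lines. These ranges overlapped. Sdhb, the iron-sulfur subunit, was at 320.78, 259.72 and 298.36 in YS, 275.73, 138.88 and 232.50 in FL and 217.23, 209.63 and 183.36 TPM in BM lines. The YS lines were above the BM lines, but the difference of 0.52 ± 0.23 had an adjusted p of 0.12. Sdhc, a membrane anchor, ranged from 170.07 TPM in YS line 3 to 386.47 TPM in YS line 1, with all FL and BM lines between 247.71 and 283.86 TPM. Sdhd, the other anchor, was at 528.21, 367.10 and 408.84 in YS, 368.35, 334.35 and 316.85 in FL and 320.18, 346.88 and 310.09 TPM in BM lines. Sdhd was the only complex II gene called by limma in any of the 3 comparisons, higher in YS than in BM lines by 0.40 ± 0.14 (adjusted p = 0.066). Its adjusted p was 0.12 under median-of-ratios scaling and 0.14 under quantile normalization, and it rose to as much as 0.19 without YS line 1 or any 1 BM line. Across the 4 genes, 0 had an unadjusted p under 0.05 in FL against BM lines.

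Complex III has 8 tested nuclear genes here. In YS against BM lines 1 was called higher and 2 lower, in FL against BM lines 0 higher and 1 lower, and in YS against FL lines limma called 0, with 2 at an unadjusted p under 0.05. Over all tested genes the shares called higher and lower were 23.5% and 14.4% in YS against BM lines. In FL against BM lines they were 17.0% and 10.6%. Uqcrc1, a core protein on the matrix side, was at 483.26, 345.52 and 265.32 in YS, 288.70, 223.13 and 230.48 in FL and 221.32, 229.53 and 221.57 TPM in BM lines. All YS lines were above the BM lines, YS line 1 by the most, and the difference was 0.66 ± 0.20 (adjusted p = 0.042). Uqcrfs1, the Rieske iron-sulfur protein, had the lowest mean of the complex at 119 TPM. It stood at 115.04, 96.15 and 108.62 in YS and 130.90, 124.49 and 139.05 TPM in BM lines, a difference of -0.30 ± 0.10 (adjusted p = 0.057). The call of Uqcrc1 was lost without BM line 1 or BM line 3 (adjusted p up to 0.12), and that of Uqcrfs1 also without YS line 2 (up to 0.19). Uqcrb, an accessory subunit, had the highest mean at 560 TPM, with overlapping groups, and 29.1% of its stretches of 75 bases occur in other genes.

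Complex IV uses tissue-restricted isoforms for several of its nuclear subunits, and 13 of its 18 genes passed the filter. Cox8b and Cox8c were listed at 0 in every line, Cox6b2 was above 0 in BM line 3 alone (0.37 TPM), Cox7b2 was highest in FL line 3 (2.84 TPM), and Cox4i2 reached 1.92 TPM in YS line 1. Their ubiquitous counterparts were abundant: Cox4i1 averaged 1207 ± 298.1 in YS, 1121 ± 51.0 in FL and 1081 ± 46.9 TPM in BM lines (± SD over 3 lines per group, n = 3), the highest mean of the complex. Cox6a1 averaged 832.7 ± 133.4, 793.7 ± 78.2 and 870.4 ± 70.7 TPM and Cox6b1 680 ± 65.9, 666.8 ± 66.5 and 766.8 ± 43.8 TPM in the same order, and neither was called. Cox6a2, the form of heart and skeletal muscle, was the lowest tested gene of the complex at 3.96 to 12.4 TPM.

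Cox7a1, likewise known from heart and skeletal muscle, had the largest called difference of all 86 genes. It was at 18.13, 12.10 and 4.71 in YS, 17.95, 19.85 and 17.23 in FL and 38.64, 28.93 and 30.37 TPM in BM lines. BM lines were above all others, and YS line 3 was lowest. The difference was -1.57 ± 0.38 in YS against BM lines (adjusted p = 0.018), or 2.96-fold higher in BM lines, and it held without any 1 line, between -1.95 and -1.08. In FL against BM lines it was -0.79 ± 0.38 (adjusted p = 0.18). Cox7a2, the ubiquitous form, was at 304.19 to 347.49 in YS, 263.19 to 372.37 in FL and 345.72 to 393.12 TPM in BM lines and was not called. Cox7a1 made up 3.36% ± 1.7 of the TPM of both forms in YS, 5.64% ± 0.9 in FL and 8.19% ± 1.7 in BM lines (± SD over 3 lines per group, n = 3).

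Among the other complex IV genes, Cox7b, an X-linked subunit, was at 188.48, 177.75 and 198.64 in YS, 207.35, 238.61 and 202.01 in FL and 273.59, 307.49 and 284.49 TPM in BM lines. The 3 groups did not overlap, and the differences were -0.61 ± 0.10 in YS against BM lines (adjusted p = 0.0048) and -0.42 ± 0.10 in FL against BM lines (adjusted p = 0.022). Cox5a, a matrix-side subunit, was at 673.17, 553.47 and 802.52 in YS, 741.57, 482.13 and 529.83 in FL and 367.06, 465.63 and 396.60 TPM in BM lines. It was 0.71 ± 0.20 higher in YS than in BM lines (adjusted p = 0.029) and 0.49 ± 0.20 higher in FL than in BM lines (adjusted p = 0.11). Cox5b, its zinc-binding neighbour on the matrix side, was at 680.01, 672.70 and 708.12 TPM in FL lines and 422.89, 593.43 and 552.70 TPM in BM lines. Its difference of 0.41 ± 0.15 had an adjusted p of 0.093 in FL against BM lines and 0.18 under median-of-ratios scaling. The call of Cox5a in YS against BM lines was lost without BM line 1 (adjusted p 0.11), and that of Cox5b without YS line 2, any FL line, BM line 1 or BM line 3 (up to 0.29). Ndufa4 was at 701.25, 534.69 and 223.13 TPM in YS lines, against 504.58 to 640.37 TPM in the 6 other lines. Its spread came from YS line 3, and no comparison called it. In FL against BM lines it was 0.20 ± 0.35 (limma, adjusted p = 0.74), with an SE that takes in the YS lines. FL lines were at 560.53 to 640.37 and BM lines at 504.58 to 543.20 TPM there, without overlap. Ndufb5 and Ndufc1 of complex I, picked after their values were seen, were also low in YS line 3, at 71.44 and 114.38 TPM against 161.02 to 191.03 and 205.69 to 293.59 TPM in the other 2 YS lines. Over all 86 genes YS line 3 did not stand out by rank within its group: it was the lowest YS line for 38, while FL line 3 was the lowest FL line for 43 and BM line 1 the lowest BM line for 49. Among all 9 lines YS line 3 was lowest for 19 genes and BM line 1 for 18. YS line 1 was the highest of the 9 for 28 genes, and no other line for more than 12. YS line 1 was the highest YS line for 52, against 41 for FL line 2 and 36 each for BM lines 2 and 3 within their groups.

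Complex V is made of a catalytic F1 sector, a rotating ring of subunit c and a peripheral stalk that holds the sectors in place. Its 15 genes gave 2 called higher and 3 lower in YS than in BM lines, beside 23.5% and 14.4% of all tested genes. They gave 2 higher and 3 lower in FL than in BM lines, beside 17.0% and 10.6%. Of the 4 stalk genes 2 were called higher in each of these comparisons, and of the 3 supernumerary membrane genes 2 and 1 were called lower. Of the 5 genes of the F1 sector 1 and 2 were called lower. These parts hold only 3 to 5 genes each, and a difference between the parts was not tested. Atp5o, the stalk subunit at the top of F1, was at 632.15, 478.02 and 400.14 in YS, 519.57, 454.19 and 437.09 in FL and 311.52, 359.95 and 316.16 TPM in BM lines. BM lines were below all others, and the differences were 0.59 ± 0.17 in YS against BM lines (adjusted p = 0.032) and 0.51 ± 0.17 in FL against BM lines (adjusted p = 0.063, and 0.15 under quantile normalization). Atp5j, the stalk subunit F6, was at 632.34, 631.03 and 582.46 TPM in FL lines and 495.68, 485.56 and 452.57 TPM in BM lines, 0.36 ± 0.11 higher in FL lines (adjusted p = 0.047). Atp5f1, the stalk subunit b, was at 509.63, 467.46 and 550.31 in YS, 430.39, 334.22 and 333.05 in FL and 375.84, 390.66 and 390.32 TPM in BM lines. YS lines were above all others, by 0.48 ± 0.12 against FL lines (adjusted p = 0.061) and 0.40 ± 0.12 against BM lines (adjusted p = 0.043). The calls depended on the lines included, while the differences kept to 0.41 to 0.74 (YS against BM lines) and 0.44 to 0.58 (FL against BM lines) for Atp5o, 0.33 to 0.40 for Atp5j, and 0.34 to 0.46 (YS against BM lines) and 0.42 to 0.61 (YS against FL lines) for Atp5f1 with 1 line left out. Without BM line 1 or BM line 3 the adjusted p of Atp5o rose to as much as 0.11 against YS and 0.19 against FL lines, where any 1 FL line also ended the call. That of Atp5j rose to as much as 0.17 without FL line 1, FL line 2 or any BM line. That of Atp5f1 rose to as much as 0.13 without any 1 BM line in YS against BM lines, and to 0.18 without those, FL line 2 or FL line 3 in YS against FL lines.

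Atp5k, the small membrane subunit e, was at 407.67, 384.23 and 556.45 in YS, 419.67, 391.11 and 351.66 in FL and 601.08, 605.54 and 548.72 TPM in BM lines. FL lines were below BM lines by 0.60 on the log2 scale (-0.60 ± 0.15, adjusted p = 0.025), while YS line 3 lay among the BM lines. Atp5a1, the F1 subunit alpha, had the highest mean of the complex at 1131 TPM. It was at 1015.37, 907.75 and 917.44 TPM in FL lines and 1348.27, 1273.78 and 1390.19 TPM in BM lines (-0.50 ± 0.14, adjusted p = 0.04), with YS lines at 888.44 to 1263.88 TPM. The call of Atp5k held without any 1 line (adjusted p up to 0.091), and that of Atp5a1 was lost without FL line 2, FL line 3, BM line 1 or BM line 3 (up to 0.14). The 3 genes of subunit c encode the same mature protein and were not called in any comparison. Atp5g1, the lowest gene of the complex, made up 20.9% ± 0.72 of their TPM in YS, 23.8% ± 3.7 in FL and 19% ± 1 in BM lines, and Atp5g2 46.5% ± 2, 38% ± 1.5 and 46.9% ± 1.2 (± SD over 3 lines per group, n = 3). The FL lines thus held a smaller Atp5g2 share than any YS or BM line, at 36.4% to 39.3% against 44.4% to 48.3%. Atp5g2 itself was -0.35 ± 0.16 in FL against BM lines, with an adjusted p of 0.16.

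The assembly factors of complex I are not part of the finished enzyme. Of the 8 matched by the patterns, 3 were called higher and 2 lower in YS than in BM lines, beside 23.5% and 14.4% of all tested genes. In FL against BM lines limma called 0, beside 27.6% of all tested genes, and 3 had an unadjusted p under 0.05. Ndufaf6 was at 19.35, 13.59 and 17.24 in YS, 15.92, 11.89 and 11.60 in FL and 10.33, 9.33 and 9.23 TPM in BM lines. BM lines were below all others, by 0.73 ± 0.17 against YS lines (adjusted p = 0.018). Atp5sl, whose symbol comes from its likeness to an ATP synthase factor, was at 42.00, 33.16 and 40.11 in YS, 27.09, 27.71 and 25.03 in FL and 20.82, 25.78 and 22.07 TPM in BM lines. YS lines were above all others, by 0.72 ± 0.13 against BM lines (adjusted p = 0.0067) and 0.51 ± 0.13 against FL lines (adjusted p = 0.063). The last of these was lost without YS line 1, FL line 2, FL line 3, BM line 1 or BM line 3 (adjusted p up to 0.18). Cox7a2l, which helps join complexes III and IV, averaged 266.2 ± 76.2, 255.6 ± 41.4 and 329.4 ± 25.7 TPM in YS, FL and BM lines (± SD over 3 lines per group, n = 3) and was not called.

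The pathway around these complexes was followed in 79 further tested genes, in lists of other nuclear subunits, assembly factors, citrate cycle enzymes, regulators and carriers. In YS against BM lines 19 of them were called higher and 9 lower, which is 24.1% and 11.4% beside 23.5% and 14.4% of all tested genes. In FL against BM lines 11 were called higher and 9 lower (13.9% and 11.4%, beside 17.0% and 10.6%), and in YS against FL lines 2 higher and 5 lower (2.53% and 6.33%, beside 6.20% and 6.56%). These shares lay near or below those of all genes, and the lists below are given as counts, with the most abundant gene of each. Citrate cycle enzymes gave 4 of 13 higher and 0 lower in YS than in BM lines, a count that can be set beside the 23.5% of all tested genes, the most abundant being Mdh2, malate dehydrogenase, at 476.47, 421.77 and 538.64 TPM in YS lines against 362.66, 382.48 and 380.42 TPM in BM lines (0.34, adjusted p = 0.045). Complex IV assembly factors gave 5 higher and 2 lower of 23 in YS than in BM lines and 3 higher and 3 lower in FL than in BM lines. Regulators of mitochondrial gene expression gave 4 higher and 1 lower of 11 in YS than in BM lines, with Yy1, whose letters were searched above, the most abundant and higher by 0.65 (adjusted p = 0.028). Carriers and channels gave 1 higher and 1 lower of 8. Other assembly factors of complex I gave 2 higher and 1 lower of 8, those of complexes II and III 0 higher and 3 lower of 10, and those of complex V 2 higher and 0 lower of 3 in YS against BM lines. The 3 nuclear subunits outside the symbol patterns gave 1 higher and 1 lower there. Most abundant were Usmg5 among these subunits, and Tmem126b, Uqcc2, Cox17 and Tmem70 among the assembly factors. In YS against BM lines they differed by -0.66, 0.18, -0.40, -0.11 and 0.13 (limma, adjusted p = 0.0043, 0.18, 0.032, 0.47 and 0.63). In FL against BM lines it was -0.83, 0.61, 0.32, 0.31 and 0.13 (adjusted p = 0.0016, 0.0036, 0.088, 0.079 and 0.67).

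Over 2-fold, 2 of the 79 genes were called in YS against BM lines and 3 in FL against BM lines. Over all tested genes the shares called over 2-fold were larger, at 12.8% and 10.3%. Atpaf1, an assembly factor of F1, was at 29.83, 20.04 and 17.32 in YS, 20.84, 18.62 and 19.16 in FL and 7.44, 8.46 and 10.38 TPM in BM lines. BM lines were lowest, by 1.24 against YS lines (adjusted p = 0.0048) and 1.08 against FL lines (adjusted p = 0.0079) on the log2 scale. Ucp2, an inner membrane carrier of the uncoupling protein family, was at 490.07, 441.76 and 369.28 in YS, 455.21, 804.01 and 648.92 in FL and 1170.95, 971.30 and 974.90 TPM in BM lines. Its difference was -1.26 in YS against BM lines (adjusted p = 0.0047) and -0.74 in FL against BM lines (adjusted p = 0.038). Uqcc3, an assembly factor of complex III on chromosome 19, was at 17.63, 16.85 and 19.16 TPM in FL lines and 44.91, 33.48 and 43.59 TPM in BM lines (-1.13, adjusted p = 0.0016). Slc25a31, an adenine nucleotide carrier, was at 2.11, 3.23 and 1.53 TPM in FL lines and 0.00, 0.33 and 0.00 TPM in BM lines. All 6 tested list genes on chromosome 19 were below 0 in FL against BM lines, 5 of them called lower, and 4 of the 6 were called lower in YS against BM lines.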

How the data were processed

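Poly(A) RNA of 9 macrophage lines was sequenced as single reads of 75 nt from a directional library. The authors deposited 1 table of TPM per gene, which keeps no read depth. Trim Galore 0.6.6, STAR 2.7.9a and RSEM 1.3.3 are named in the submitters' processing notes, and the genome build and the strand setting of counting are not given in the sources used here. From the deposited TPM, log2(TPM + 1) of genes at 1 TPM or more in 3 or more lines was fitted with limma 3.58.1 (R 4.3.3) over all 3 groups with a variance trend, and p-values were Benjamini-Hochberg adjusted over all tested genes. The p-values measure the spread between lines, which may be technical. The test was checked on simulated data with independent genes and an equal spread in the 3 groups. In the lines themselves the spread was larger in YS than in BM lines, which that check does not cover. Genes named are, per comparison, the 5 largest called rises and falls, those called over 2-fold, the highest and lowest subunit of each complex, paralogous isoforms and complex II; list genes are named where called over 2-fold or highest in their list. Members and lists were chosen with earlier results of these data known. Alternatives varied pseudocount, filter, scaling, variance model, threshold, groups fitted, the replicate block and single lines. Chromosomes came from RefSeq (GRCm38.p6), matched for 11711 of 11753 genes, and shared stretches and strand overlaps from GENCODE.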

Additional observations from a re-analysis of the deposited data

How the results depend on the processing

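All 49 calls kept their direction under every alternative, including the scalings. In YS against BM lines the count over 2-fold went from 1 to 2 under quantile normalization and to 2 under median-of-ratios scaling, which also moved the median difference to -0.16. In FL against BM lines 32 genes were called when only the 2 groups compared were fitted, the count over 2-fold was 0 without the members on chromosome 19 (added after seeing the data; limma, 0 at an unadjusted p under 0.05), and the median was -0.11 under median-of-ratios scaling. In YS against FL lines the 6 calls became 3 without a variance trend, 0 when only the 2 groups were fitted (10 at an unadjusted p under 0.05, limma) and 0 at an adjusted p under 0.05 (18). The causes were not tested, and the shares of all tested genes called under these alternatives were not computed. With 1 line left out, calls ranged from 13 to 33 in YS against BM lines, from 7 to 28 in FL against BM lines and from 0 to 12 in YS against FL lines. Those over 2-fold ranged from 1 to 2, from 2 to 3 and from 0 to 1, and the medians from -0.11 to -0.02, from -0.07 to 0.01 and from -0.07 to 0.05. Same-numbered lines did not deviate together over all tested genes (correlations from -0.118 to 0.0878), which gave no sign that the numbers pair the lines. A link that moves few genes could be missed by these correlations. With a replicate block 29, 14 and 3 genes were called. A rescaling without mitochondrially encoded genes was not run, because those genes were not analysed here. TPM keep no depth, so no counting error could be given.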
